A study of Mus musculus with 6 samples.

Results

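Chemokine and chemokine receptor genes were examined in distal colon injured with DSS (dextran sulfate sodium, a polymer that strips the colonic epithelium), with Gm31629-/- mice set against WT mice. The genes were taken by symbol from the whole expression table: every Ccl, Cxcl, Cx3cl1, Xcl1, Ccr, Cxcr, Cx3cr1, Xcr1, and Ackr gene, other than Cxcl13, Cxcr5, Ccl19, Ccl21a, and Ccr7, which serve lymphoid organs. This gave 54 of the 27546 genes listed, made up of 32 ligand genes, 20 receptor genes, and 2 ligand pseudogenes. The study asked how loss of Gm31629, a long noncoding RNA of the intestinal epithelium, alters the response of the colon to injury. Both groups were C57BL/6 by the labels (C57BL/6J by the methods), littermates aged 8 weeks that drank 3% DSS for 7 days and were killed on day 8. There were 3 Gm31629-/- mice, for which no tissue-specific driver is described, and 3 WT mice, with 1 RNA-Seq library taken to come from each. There was no mouse without DSS, so all differences are between genotypes under injury.

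Chemokines are small secreted proteins that bind to glycosaminoglycans and form gradients, along which leukocytes carrying the matching G protein-coupled receptor move out of blood and through tissue. Inflammatory chemokines are induced in epithelium, stroma, and macrophages by cytokines and microbial products, whereas homeostatic chemokines such as CXCL12 are made steadily and hold cells in place. Atypical receptors bind chemokines without signaling through G proteins and remove or transport them. In DSS colitis, ligands of CXCR2 draw neutrophils and ligands of CCR2 draw Ly6C-high monocytes into the damaged mucosa. As the tissue was sequenced in bulk, fewer cells of a type and less RNA per cell cannot be told apart.

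Values are FPKM, that is, fragments scaled to transcript length and library depth, as deposited, so levels of different genes can be set side by side per length. By the fragments recovered from these values, library depth was 18002800 to 18792400. Gm31629 itself had no entry under that symbol and was not analysed here, so the genotype labels could not be checked. The methods describe male mice, yet the Y-linked genes Ddx3y, Uty, Kdm5d, and Eif2s3y were above 0 only in Gm31629-/- mouse 1, and Xist was nearly absent only there. The methods also speak of RNA pooled from the mice, whereas the table has a column per replicate, and the columns were treated as separate mice. Of the smooth muscle markers, 8 of 9 were called higher in Gm31629-/- mice, and the summed FPKM of the list was 1408 to 2290 in Gm31629-/- mice and 11.9 to 35.0 in WT mice, so transcripts of the muscle coat were nearly absent from the WT libraries. The summed FPKM of 15 epithelial markers was 8018 to 9536 in Gm31629-/- mice and 12960 to 14110 in WT mice. Of these markers 5 were called lower and 0 higher, with a median log2 fold change of -0.51, and the most abundant, Krt8 and Krt19, were at -1.05 and -1.002, whereas Epcam and Cdh1 were not called and overlapped between the groups. How far this difference in tissue makeup accounts for any value given here was not tested.

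Of the 54 genes, 43 had a mean FPKM of at least 0.5 over the 6 mice and were tested with limma on log2(FPKM + 1). A gene was called when its Benjamini-Hochberg adjusted p over all 14657 tested genes was under 0.05 and its log2 fold change was above 1 or below -1. Chemokine and receptor genes that were called were all higher in Gm31629-/- mice: 27 of the 43 tested members were called higher and 0 were called lower, whereas 18.4% of all tested genes were called higher and 4.64% were called lower. By an unadjusted limma p under 0.05, and by limma's voom on recovered fragments, the number called lower was likewise 0; voom called 24.9% of all tested genes higher and 6.77% lower. Of the ligand genes 15 of 28 were called higher, of the receptor genes 11 of 14, and the pseudogene Ccl19-ps1 was also called. In 33 of the 43 members all 3 Gm31629-/- mice lay above all 3 WT mice, against 36.3% of all tested genes. The median log2 fold change was 1.41 over the members and 0.15 over all tested genes. A gene silent in WT mice passed the filter on low values only by its level in Gm31629-/- mice. Among the 28 tested members with a WT mean of at least 0.5 FPKM 18 were called. The 15 below it passed the filter only by their level in Gm31629-/- mice, and 9 of them were called. The shares of all genes under the same split were not computed, so these counts have no background beside them. Without any filter, 26 of all 54 members were called higher and 0 were called lower, against 9.21% and 2.25% of all 27546 genes. When the libraries were rescaled to the epithelial markers, 35 of 44 tested members were called higher and 0 lower, against 33.9% and 1.43% of all tested genes, and the higher share of all called genes went from 79.9% to 96.0%.

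**Figure D1:**
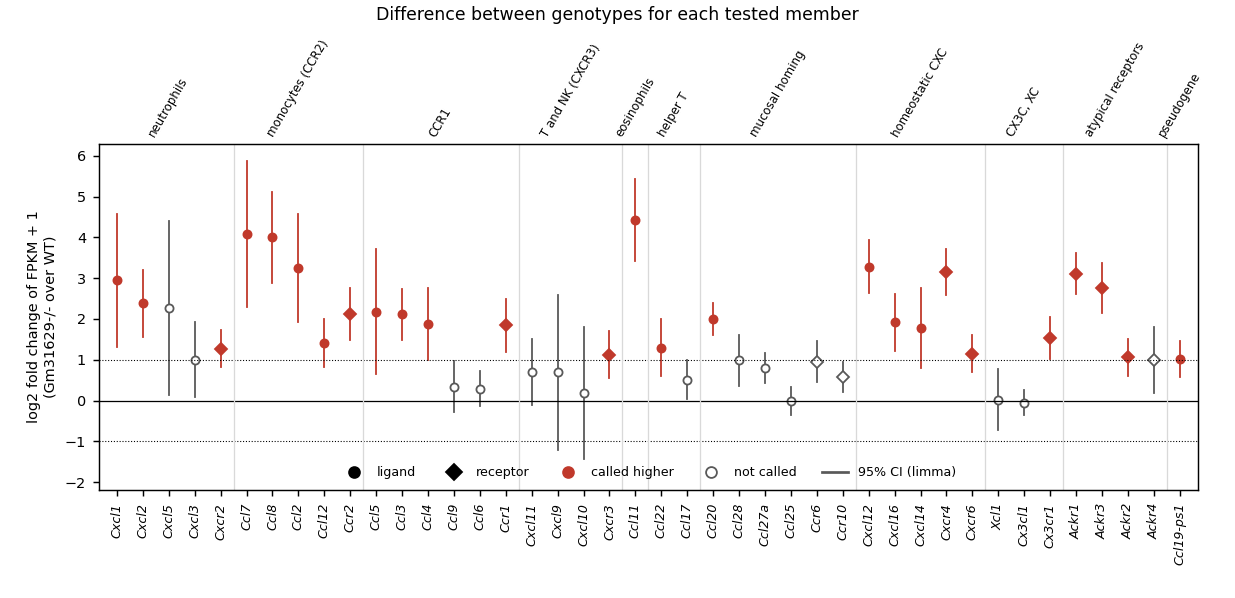
Log2 fold change of FPKM + 1 (Gm31629-/- over WT, y axis) for 42 of the 43 tested members (x axis), grouped by the cell attracted, with 95% confidence intervals from limma over 3 mice per group. Circles are ligand genes and the pseudogene, diamonds are receptor genes, and filled red symbols are the 26 of them called higher; Ccl11, at 4.43, and the monocyte attractants Ccl7, at 4.08, and Ccl8, at 3.997, hold the highest values, and Cx3cl1, Xcl1, and Ccl25 lie near 0.

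Neutrophil chemoattractants act through CXCR2, and their genes lie near each other on chromosome 5. Of the 5 tested members of this group, receptor included, 3 were called higher, with a median log2 fold change of 2.27. Cxcl1 (ENSMUSG00000029380), the main inducible neutrophil attractant of mice, stood at 4.49, 38.4, and 31.3 FPKM in Gm31629-/- mice 1 to 3 and at 1.01, 1.93, and 1.59 FPKM in WT mice 1 to 3. Gm31629-/- mouse 1 was far below mice 2 and 3 and still above every WT mouse. Cxcl1 was called higher, with a log2 fold change of 2.95 (SE 0.70, limma adjusted p = 0.0137). Cxcl2 (ENSMUSG00000058427), a closely related attractant made largely by macrophages and neutrophils, read 7.73, 22.2, and 9.48 FPKM against 1.54, 1.29, and 1.57 FPKM. All Gm31629-/- mice were above all WT mice, which were nearly level with each other, and the log2 fold change was 2.38 (SE 0.35, limma adjusted p = 0.00236). Cxcl5 (ENSMUSG00000029371), which is made by epithelial and stromal cells, was the most abundant ligand of the group, at 3.59, 65.9, and 15.0 FPKM in Gm31629-/- mice and 1.13, 5.16, and 2.34 FPKM in WT mice. The groups overlapped, as Gm31629-/- mouse 1 was below WT mouse 2, and Cxcl5 was not called (log2 fold change 2.27, 95% confidence interval 0.14 to 4.397, limma adjusted p = 0.0790). Without Gm31629-/- mouse 1, the lowest of its group, the limma adjusted p of Cxcl5 was 0.0108. With any other mouse left out Cxcl5 was not called, at a limma adjusted p of up to 0.205. Cxcl3 (ENSMUSG00000029379) was at 1.68, 4.45, and 0.716 FPKM against 0.278, 0.508, and 0.608 FPKM. Its groups did not overlap, and it too was not called (log2 fold change 1.00, limma adjusted p = 0.0754). Cxcl3 was called without Gm31629-/- mouse 3, the lowest of its group, at a limma adjusted p of 0.0196. With any other mouse left out it was not called, at a limma adjusted p of up to 0.186.

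The start sites of Cxcl1, Cxcl2, and Cxcl3 are shown beside that of Cxcl10, a ligand of another receptor whose groups overlapped, because all 4 hold the letters GGAATTTCC on the plus or the minus strand, a form of the kappa B site that NF-kappa B proteins bind. The runs below are the 250 bases before the RefSeq gene start in GRCm38.p6, read 5′ to 3′ on the strand of the gene, with matched letters in capitals: chr5:90890995-90891244 (plus strand) for Cxcl1, chr5:90903649-90903898 (plus strand) for Cxcl2, chr5:90785851-90786100 (plus strand) for Cxcl3, and chr5:92348890-92349139 (minus strand) for Cxcl10. In Cxcl10, the capitals nearer the 5′ end mark GAAANNGAA, the core of an interferon-stimulated response element.
Cxcl1: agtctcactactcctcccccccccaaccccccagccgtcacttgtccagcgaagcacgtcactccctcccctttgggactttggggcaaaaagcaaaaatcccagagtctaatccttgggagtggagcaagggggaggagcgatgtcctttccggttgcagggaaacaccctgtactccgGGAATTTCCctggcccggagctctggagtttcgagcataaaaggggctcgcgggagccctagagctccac
Cxcl2: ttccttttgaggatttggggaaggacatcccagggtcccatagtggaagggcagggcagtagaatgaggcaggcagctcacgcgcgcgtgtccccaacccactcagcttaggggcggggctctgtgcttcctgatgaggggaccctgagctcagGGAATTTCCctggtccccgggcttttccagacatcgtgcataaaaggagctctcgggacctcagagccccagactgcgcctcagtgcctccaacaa
Cxcl3: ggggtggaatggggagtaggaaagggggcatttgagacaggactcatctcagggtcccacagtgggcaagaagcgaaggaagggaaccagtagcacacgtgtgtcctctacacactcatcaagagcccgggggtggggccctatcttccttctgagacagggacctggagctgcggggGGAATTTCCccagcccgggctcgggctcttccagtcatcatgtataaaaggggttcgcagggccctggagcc
Cxcl10: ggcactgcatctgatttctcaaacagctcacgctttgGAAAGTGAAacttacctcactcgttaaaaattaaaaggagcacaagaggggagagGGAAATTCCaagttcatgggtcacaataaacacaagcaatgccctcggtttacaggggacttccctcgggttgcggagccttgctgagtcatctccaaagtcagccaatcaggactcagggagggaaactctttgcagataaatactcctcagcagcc
The kappa B letters began 70 bases before the gene start in Cxcl1, 96 in Cxcl2, and 72 in Cxcl3, on the strand of the gene, and 158 before it in Cxcl10, on the other strand. Of 32851 promoters in the RefSeq table, 94 (0.286%) held these letters in the same window, searched on both strands. The 40 members with an entry had 47 promoters, of which 5 held them, in these 4 genes and Ccr3. GAAANNGAA was in 7.13% of all promoters and in 7 of the 47 member promoters, those of Ccl1, Ccl3, Ccr2, Cxcl9, Cxcl10, Cxcl14, and Cxcr1. A match describes the letters only, and binding of a factor was not measured.

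The receptor of these ligands, Cxcr2 (ENSMUSG00000026180), carried chiefly by neutrophils, read 1.39, 2.42, and 1.29 FPKM in Gm31629-/- mice and 0.124, 0.109, and 0.0698 FPKM in WT mice. Every Gm31629-/- mouse was above 1 FPKM and every WT mouse rested on fewer than 10 fragments. Cxcr2 was called higher (log2 fold change 1.27, SE 0.19, limma adjusted p = 0.00261), with a ratio of group means of 16.8. Cxcr1, a second neutrophil receptor, was represented by 1 fragment, in Gm31629-/- mouse 2. Of 10 tested neutrophil markers, 9 were called higher, and the summed FPKM of all 12 listed was 578 to 1052 in Gm31629-/- mice and 72.1 to 133 in WT mice. Ly6g alone made up most of that sum in WT mice, at 66.7, 121, and 80.8 FPKM in WT mice 1 to 3. It was at 288, 596, and 965 FPKM in Gm31629-/- mice 1 to 3, so the sum describes chiefly that gene. Camp, Elane, Mpo, and Ngp were at 0 in every WT mouse. Within the Gm31629-/- group the 12 markers had no common order: 7 were highest in mouse 1, 4 in mouse 2, and 1 in mouse 3. S100a9, a subunit of calprotectin, was at 119.8, 77.2, and 35.0 FPKM in mice 1 to 3, and Csf3r, the receptor of granulocyte colony-stimulating factor, at 2.17, 13.8, and 5.46 FPKM. The summed CXCR2 ligands, at 17.5, 131, and 56.5 FPKM in mice 1 to 3, had the order of Csf3r and not that of S100a9.

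**Figure D2:**
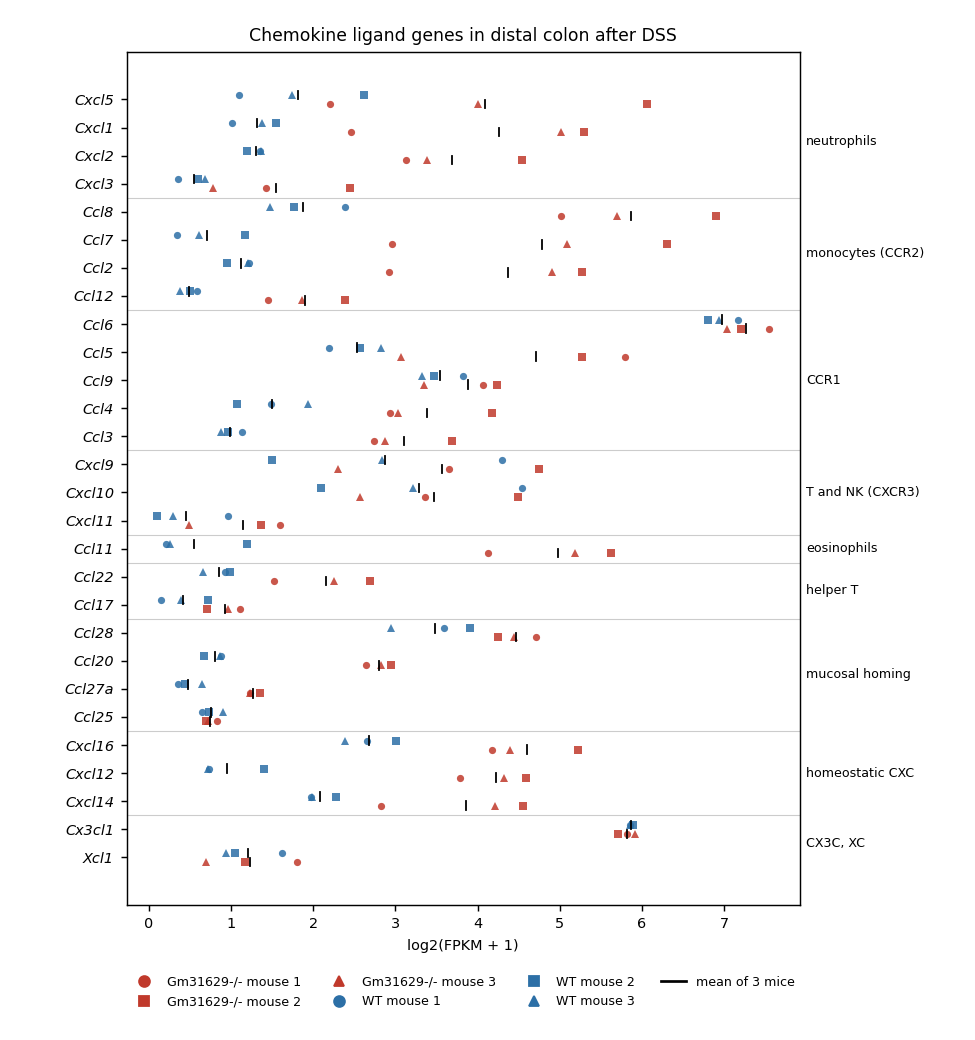
Level of the 28 tested ligand genes as log2(FPKM + 1) (x axis) in each of the 3 Gm31629-/- mice (red) and 3 WT mice (blue), grouped by the cell attracted, with a black bar at the mean of each group. Ccl8, Ccl7, and Ccl11 show the widest separation, whereas the points of Cxcl5, Ccl6, Ccl9, Cxcl9, Cxcl10, Cxcl11, Ccl17, Ccl25, Cx3cl1, and Xcl1 overlap between the groups.

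The monocyte chemoattractants, which bring CCR2-bearing monocytes out of blood into inflamed tissue, showed a difference in every member: 5 of 5 were called higher, with a median log2 fold change of 3.24. Ccl8 (ENSMUSG00000009185), a monocyte chemoattractant protein by family whose mouse form also acts on CCR8, reached 31.4, 118, and 50.8 FPKM in Gm31629-/- mice and 4.23, 2.39, and 1.77 FPKM in WT mice. Gm31629-/- mouse 2 was by far the highest and the groups did not overlap. Its log2 fold change was 3.997 (SE 0.47, limma adjusted p = 0.00106), and it went from rank 11 of the 32 ligand genes in WT mice to rank 2 in Gm31629-/- mice. Ccl7 (ENSMUSG00000035373), a second CCR2 ligand, read 6.78, 77.9, and 33.1 FPKM against 0.270, 1.25, and 0.531 FPKM. The spread among Gm31629-/- mice was wide, yet the lowest of them was above the highest WT mouse, and the log2 fold change was 4.08 (SE 0.76, limma adjusted p = 0.00571). Ccl2 (ENSMUSG00000035385), the chief signal by which monocytes leave bone marrow, was at 6.59, 37.7, and 29.0 FPKM against 1.33, 0.927, and 1.31 FPKM. Gm31629-/- mouse 1 was again the lowest of its group and still above every WT mouse (log2 fold change 3.24, SE 0.56, limma adjusted p = 0.00436). Ccl12 (ENSMUSG00000035352), a mouse CCR2 ligand, was scarcer, at 1.72, 4.24, and 2.64 FPKM against 0.503, 0.414, and 0.297 FPKM. The groups did not overlap, and each WT value rested on fewer than 10 fragments (log2 fold change 1.41, SE 0.25, limma adjusted p = 0.00472).

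Ccr2 (ENSMUSG00000049103), the receptor of these ligands, stood at 3.23, 6.32, and 2.58 FPKM in Gm31629-/- mice and at 0.112, 0.0822, and 0.0944 FPKM in WT mice. WT mice were close to one another and all Gm31629-/- mice were far above them, with a ratio of group means of 42.1 (log2 fold change 2.13, SE 0.27, limma adjusted p = 0.00135). Of 12 monocyte and macrophage markers 11 were called higher, and their summed FPKM was 591 to 1382 in Gm31629-/- mice and 96.9 to 106 in WT mice, led by Lyz2 and C1qa. That sum was highest in Gm31629-/- mouse 2, as were Ccl2, Ccl7, Ccl8, Ccl12, and Ccr2. The part of cell number in these values was not tested.

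The ligand genes Ccl3, Ccl4, Ccl5, Ccl6, and Ccl9, whose products attract monocytes, macrophages, and T cells, parted into a group that was higher and a pair that was not: 3 of 5 were called, and Ccl6 and Ccl9 were not. Ccl3 (ENSMUSG00000000982), macrophage inflammatory protein 1 alpha, read 5.68, 11.9, and 6.32 FPKM in Gm31629-/- mice and 1.20, 0.943, and 0.834 FPKM in WT mice. Its groups were well apart (log2 fold change 2.11, SE 0.27, limma adjusted p = 0.00135). Ccl4 (ENSMUSG00000018930), macrophage inflammatory protein 1 beta, was at 6.67, 17.0, and 7.18 FPKM against 1.80, 1.09, and 2.82 FPKM, without overlap (log2 fold change 1.88, SE 0.37, limma adjusted p = 0.00715). Ccl5 (ENSMUSG00000035042), made by T cells and NK cells among others, showed 54.3, 37.5, and 7.37 FPKM against 3.55, 4.92, and 6.10 FPKM. Gm31629-/- mouse 3 was only slightly above WT mouse 3, and the limma adjusted p was 0.0311 (log2 fold change 2.18, SE 0.65). This call was lost when any mouse other than Gm31629-/- mouse 3 was left out, with limma adjusted p from 0.0690 to 0.0949. It was also lost under voom (0.0609) and with no filter (limma adjusted p = 0.0658).

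Ccl6 (ENSMUSG00000018927), a CCR1 ligand found in rodents, was the most abundant ligand gene in both groups, at 186, 147, and 129.8 FPKM in Gm31629-/- mice and 143, 111, and 122 FPKM in WT mice. The groups overlapped, and the difference had a 95% confidence interval of -0.14 to 0.72 on the log2 scale (log2 fold change 0.29, limma adjusted p = 0.238). Ccl9 (ENSMUSG00000019122), a related CCR1 ligand, read 15.7, 17.8, and 9.19 FPKM against 13.1, 10.1, and 9.02 FPKM, also with overlap (log2 fold change 0.35, 95% confidence interval -0.27 to 0.96, limma adjusted p = 0.314). Scaled to the epithelial markers, both were called higher, with log2 fold changes of 1.03 each. Ccr1 (ENSMUSG00000025804), the receptor shared by Ccl3, Ccl5, Ccl6, and Ccl9, was the most abundant receptor gene in WT mice, at 2.02, 2.18, and 1.58 FPKM, and stood at 6.92, 14.8, and 8.11 FPKM in Gm31629-/- mice. No WT mouse reached the lowest Gm31629-/- mouse (log2 fold change 1.84, SE 0.27, limma adjusted p = 0.00236).

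The ligands of CXCR3, which are induced by interferon and draw activated T cells and NK cells, were the inflammatory group in which no ligand was called: 0 of 3 passed by limma, 0 of 3 had an unadjusted p under 0.05, and 0 of 3 were called by voom. Cxcl9 (ENSMUSG00000029417) read 11.6, 25.9, and 3.93 FPKM in Gm31629-/- mice and 18.7, 1.82, and 6.12 FPKM in WT mice. WT mouse 1 lay above Gm31629-/- mice 1 and 3, and the SD was 11.1 FPKM around a mean of 13.8 in Gm31629-/- mice and 8.78 around 8.89 in WT mice (log2 fold change 0.69, 95% confidence interval -1.22 to 2.60, limma adjusted p = 0.516). Cxcl10 (ENSMUSG00000034855) was at 9.29, 21.4, and 4.91 FPKM against 22.3, 3.26, and 8.25 FPKM, and the highest of all 6 mice was a WT mouse. The log2 fold change was 0.19 with a 95% confidence interval of -1.42 to 1.80 (limma adjusted p = 0.839), which leaves room for a difference past the threshold in either direction. Cxcl11 (ENSMUSG00000060183), annotated as a polymorphic pseudogene, read 2.02, 1.57, and 0.402 FPKM against 0.955, 0.0732, and 0.224 FPKM, with overlap (log2 fold change 0.69, limma adjusted p = 0.142). It was called without Gm31629-/- mouse 3, the lowest of its group, at a limma adjusted p of 0.0344. With any other mouse left out it was not called, at a limma adjusted p of up to 0.334. Cxcl10 and Cxcl11 overlap Art3 on the other strand, and whether counting used strand is not given in the sources used here. Ackr1, Ackr4, Cx3cr1, Cxcr6, Ccl2, Ccl6, Ccl25, and Ccr10 also overlap other annotated genes.

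Cxcr3 (ENSMUSG00000050232), the receptor of these ligands, was called higher all the same. Its level was 2.51, 3.32, and 1.67 FPKM in Gm31629-/- mice and 0.937, 0.257, and 0.615 FPKM in WT mice. The groups did not overlap (log2 fold change 1.12, SE 0.24, limma adjusted p = 0.0102), and without Gm31629-/- mouse 2 or WT mouse 2 the fold fell under the threshold, at 0.96 on the log2 scale in each case. T cell markers were called higher in 3 of 8 tested (Cd4, Cd2, and Cd5), the most abundant of them, Lck and Cd8a, not being called, with a summed FPKM over all 10 listed of 18.0 to 29.6 in Gm31629-/- mice and 6.63 to 10.3 in WT mice. Of the NK and cytotoxic markers 0 of 3 tested (Gzma, Gzmb, and Nkg7) were called by limma, none had an unadjusted p under 0.05, and their summed FPKM of 8.55 to 37.1 in Gm31629-/- mice and 11.3 to 28.9 in WT mice overlapped.

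Ccl11 (ENSMUSG00000020676), eotaxin-1, which recruits eosinophils through CCR3, had the largest log2 fold change of all 43 members. It read 16.5, 48.1, and 35.4 FPKM in Gm31629-/- mice and 0.1499, 1.28, and 0.197 FPKM in WT mice, of which mice 1 and 3 had 3 and 4 fragments. The groups were far apart (log2 fold change 4.43, SE 0.43, limma adjusted p = 5.48e-04), and Ccl11 went from rank 23 to rank 5 among ligand genes. Ccl24, eotaxin-2, was below the filter, with 2 to 13 fragments per mouse, and the receptor Ccr3 had 8 fragments over all 6 libraries. Of the eosinophil markers, 1 of 3 tested was called higher (Prg2), the granule gene Epx was at 0 in all Gm31629-/- mice, and the summed FPKM was 4.10 to 15.3 in Gm31629-/- mice and 1.39 to 2.54 in WT mice. In Gm31629-/- mice 2 and 3 Il5ra, at 12.9 and 6.67 FPKM, made up most of that sum. The fibroblast list, from a cell type known to make eotaxin, had 8 of 8 markers called higher, led by Col6a1 and Col3a1, with a summed FPKM of 217 to 647 in Gm31629-/- mice and 22.2 to 42.2 in WT mice. The order of Gm31629-/- mice was the same for that sum and for Ccl11, with mouse 2 highest and mouse 1 lowest, and whether the fibroblast content accounts for Ccl11 was not tested.

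The CCR4 ligands, which guide helper and regulatory T cells, were scarce. Ccl22 (ENSMUSG00000031779), made by dendritic cells and macrophages, read 1.87, 5.43, and 3.77 FPKM in Gm31629-/- mice and 0.907, 0.979, and 0.572 FPKM in WT mice. It was called higher without overlap (log2 fold change 1.30, SE 0.30, limma adjusted p = 0.0126), and its limma adjusted p was 0.0551 without WT mouse 3. Ccl17 (ENSMUSG00000031780) stood at 1 to 11 fragments per mouse, the groups overlapped, and it was not called (log2 fold change 0.51, limma adjusted p = 0.0786). Ccl1 and the receptors Ccr4 and Ccr8 had 19, 78, and 30 fragments in all and were not tested.

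Among the 6 tested mucosal homing genes limma called Ccl20 alone, and voom called Ccl27a, Ccl28, Ccr6, and Ccr10 as well. Ccl20 (ENSMUSG00000026166), which is induced in epithelium and draws CCR6-bearing dendritic cells, Th17 cells, and B cells, read 5.24, 6.67, and 6.09 FPKM in Gm31629-/- mice and 0.837, 0.586, and 0.824 FPKM in WT mice. Both groups were tight and far apart, and the SE of 0.16 was the smallest of the called members (log2 fold change 1.999, limma adjusted p = 3.27e-04). Its receptor Ccr6 (ENSMUSG00000040899) was at 0.965, 0.615, and 1.74 FPKM against 0.107, 0.0274, and 0.0525 FPKM, where the WT values rested on 1 to 5 fragments. Ccr6 passed the p threshold without passing the fold threshold (log2 fold change 0.95, SE 0.21, limma adjusted p = 0.0113), which on the scale of FPKM + 1 understates low genes, and it was called by voom, with a log2 fold change of 3.99. Within the Gm31629-/- group, Ccr6 was highest in mouse 3, as was the summed FPKM of the B cell and plasma cell markers, though not each marker. That sum was 266, 236, and 428 in Gm31629-/- mice 1 to 3 and 15.1 to 22.2 in WT mice.

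Ccl28 (ENSMUSG00000074715), the ligand by which colon epithelium holds IgA plasma cells through CCR10, was the most abundant of the mucosal group, at 25.2, 17.9, and 20.8 FPKM in Gm31629-/- mice and 11.1, 14.0, and 6.71 FPKM in WT mice. The groups did not overlap and the log2 fold change of 0.98 was just under the threshold (SE 0.26, limma adjusted p = 0.0216). Ccl28 was called without Gm31629-/- mouse 2 or without WT mouse 2. With any other mouse left out it was not called, at limma adjusted p from 0.0535 to 0.0554. Ccr10 (ENSMUSG00000044052) read 1.20, 1.16, and 1.36 FPKM against 0.658, 0.515, and 0.339 FPKM, without overlap, and also had a small fold (log2 fold change 0.58, SE 0.15, limma adjusted p = 0.0211). Ccl27a, a second CCR10 ligand with a near-identical copy in Ccl27b, was likewise under the fold threshold (log2 fold change 0.80, limma adjusted p = 0.00631), and its count is uncertain because it also overlaps Il11ra1. Ccl25 (ENSMUSG00000023235), the CCR9 ligand of the small intestine, stood at 0.781, 0.619, and 0.643 FPKM against 0.566, 0.664, and 0.865 FPKM. The groups overlapped and the 95% confidence interval of the difference was -0.36 to 0.34 on the log2 scale (limma adjusted p = 0.953). Its receptor Ccr9 was below the filter, at 11 to 31 fragments per mouse.

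The homeostatic CXC genes were called in full, with 5 of 5 tested members higher and a median log2 fold change of 1.91. Cxcl12 (ENSMUSG00000061353), which stromal cells make to retain leukocytes and progenitors, read 12.7, 23.0, and 19.0 FPKM in Gm31629-/- mice and 0.661, 1.63, and 0.644 FPKM in WT mice. The lowest Gm31629-/- mouse was several times above the highest WT mouse (log2 fold change 3.28, SE 0.28, limma adjusted p = 3.60e-04). Cxcr4 (ENSMUSG00000045382), its receptor, was the most abundant receptor gene in Gm31629-/- mice, at 14.7, 18.0, and 11.2 FPKM, against 0.359, 1.14, and 0.765 FPKM in WT mice. The groups were again far apart (log2 fold change 3.16, SE 0.24, limma adjusted p = 2.81e-04). Ligand and receptor stood at similar levels per length in Gm31629-/- mice, and did so in WT mice. The order of Cxcl12 among Gm31629-/- mice, with mouse 2 highest and mouse 1 lowest, was that of the fibroblast and endothelial sums, and their part in it was not tested.

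Cxcl16 (ENSMUSG00000018920), which exists both as a membrane-bound and as a shed ligand, was the most abundant of this group, at 17.1, 36.2, and 20.001 FPKM against 5.31, 7.02, and 4.21 FPKM. The groups did not overlap (log2 fold change 1.91, SE 0.30, limma adjusted p = 0.00288), although the gene overlaps Zmynd15 on the other strand. Cxcr6 (ENSMUSG00000048521), its receptor on tissue-resident T cells and innate lymphoid cells, read 2.08, 2.69, and 1.97 FPKM against 0.6999, 0.518, and 0.193 FPKM. All Gm31629-/- mice were above all WT mice (log2 fold change 1.15, SE 0.19, limma adjusted p = 0.00365). Cxcl14 (ENSMUSG00000021508), a chemokine made by epithelium and stroma, was at 6.10, 22.4, and 17.5 FPKM against 2.93, 3.83, and 2.97 FPKM, with Gm31629-/- mouse 1 nearest to the WT mice. It was called (log2 fold change 1.78, SE 0.42, limma adjusted p = 0.0135), and its limma adjusted p was 0.0529 without WT mouse 3. Cxcl17 was below the filter, at 3 to 15 fragments in Gm31629-/- mice and at most 1 in WT mice.

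Cx3cl1 (ENSMUSG00000031778), fractalkine, a membrane-anchored ligand of epithelium and endothelium, was abundant and nearly level across the 6 mice. It stood at 55.5, 51.3, and 59.4 FPKM in Gm31629-/- mice and at 56.8, 58.5, and 56.6 FPKM in WT mice. The groups overlapped, and the 95% confidence interval of -0.35 to 0.25 on the log2 scale leaves out a difference of the size called here (limma adjusted p = 0.769), although after scaling to the epithelial markers the log2 fold change was 0.68 (limma adjusted p = 0.00543). Its receptor Cx3cr1 (ENSMUSG00000052336), a marker of resident intestinal macrophages and patrolling monocytes, read 1.91, 3.89, and 2.73 FPKM against 0.312, 0.407, and 0.189 FPKM. It was called higher without overlap (log2 fold change 1.53, SE 0.22, limma adjusted p = 0.00206). Xcl1 (ENSMUSG00000026573), which CD8+ T cells and NK cells make and which attracts cross-presenting dendritic cells, had 6 to 24 fragments per mouse and overlapped between the groups (log2 fold change 0.02, limma adjusted p = 0.957). Its receptor Xcr1 was below the filter, with 20 to 35 fragments in Gm31629-/- mice and 0 to 4 in WT mice.

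The atypical receptors, which clear or transport chemokines, were called higher in 3 of 4 genes. Ackr1 (ENSMUSG00000037872), which venular endothelium and erythroid cells carry and which moves inflammatory chemokines across the vessel wall, read 10.6, 6.67, and 9.996 FPKM in Gm31629-/- mice and 0.0769, 0.356, and 0.0379 FPKM in WT mice. WT values rested on 1 to 9 fragments and the groups were far apart (log2 fold change 3.11, SE 0.22, limma adjusted p = 2.35e-04). All 8 endothelial markers, led by Pecam1 and Esam, were called higher, with a summed FPKM of 45.04, 98.5, and 72.6 in Gm31629-/- mice 1 to 3 and 2.60 to 6.56 in WT mice. The erythrocyte markers, of which 3 of 5 were called higher, summed to 3005, 144, and 749.7 FPKM in Gm31629-/- mice 1 to 3 and 38.0 to 141 FPKM in WT mice, and the part of either cell type in Ackr1 was not tested.

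Ackr3 (ENSMUSG00000044337), a scavenger of CXCL12, stood at 6.65, 14.0, and 9.01 FPKM against 0.452, 0.697, and 0.493 FPKM. All 3 Gm31629-/- mice were above all 3 WT mice (log2 fold change 2.76, SE 0.26, limma adjusted p = 4.87e-04). Ackr2 (ENSMUSG00000044534), a scavenger of inflammatory CC chemokines on lymphatic vessels, read 1.89, 1.54, and 0.905 FPKM against 0.190, 0.0888, and 0.187 FPKM. It was called at a log2 fold change of 1.06 (SE 0.19, limma adjusted p = 0.00499), which was 0.93 without Gm31629-/- mouse 1 and 1.00 after median ratio scaling, short of the threshold in both. Ackr4 (ENSMUSG00000079355), a scavenger of CCL19, CCL21, and CCL25, was at 3.08, 1.38, and 0.486 FPKM against 0.201, 0.289, and 0.198 FPKM. Its groups did not overlap, with a wide spread among Gm31629-/- mice, and it was not called (log2 fold change 0.99, limma adjusted p = 0.0519), although it was by voom (adjusted p = 0.0388), with a pseudocount of 0.1 (0.0269), after scaling to the epithelial markers (0.0187), and without Gm31629-/- mouse 3 (0.00968). That mouse was the lowest of its group, and with any other left out Ackr4 was not called (limma adjusted p up to 0.137). The pseudogene Ccl19-ps1 (ENSMUSG00000082902), which can share reads with near-identical copies, read 1.66, 0.829, and 0.999 FPKM in Gm31629-/- mice and 0, 0.170, and 0 FPKM in WT mice. That was 5 to 10 fragments in Gm31629-/- mice and 0 to 1 in WT mice, and it was called at a log2 fold change of 1.02 (limma adjusted p = 0.00553). Ccl19-ps3 and Ccl27b, with 14 and 1 fragments in all, were not tested.

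**Figure D3:**
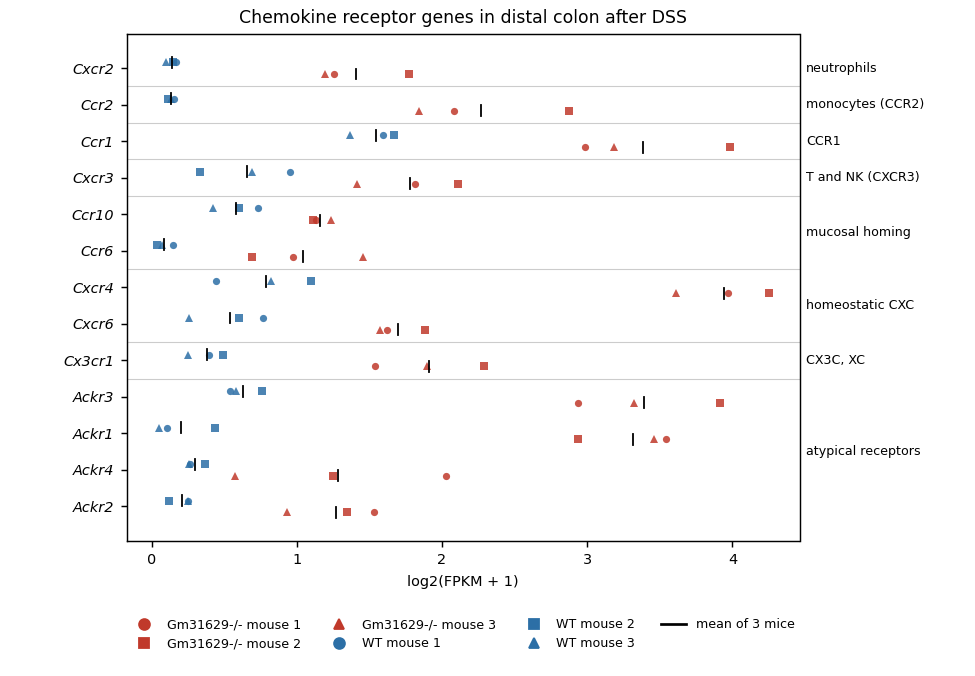
Level of 13 of the 14 tested receptor genes as log2(FPKM + 1) (x axis) in each of the 3 Gm31629-/- mice (red) and 3 WT mice (blue), grouped by the cell attracted, with a black bar at the mean of each group. In all 13 rows the 3 Gm31629-/- mice lie above the 3 WT mice, and Cxcr4, Ackr1, and Ackr3 are the widest apart.

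The ligand genes together made up more transcript in Gm31629-/- mice, and their makeup differed. Their summed level was 501, 866, and 528 FPKM in Gm31629-/- mice 1 to 3 and 297, 238, and 241 FPKM in WT mice 1 to 3, without overlap. In WT mice Ccl6 and Cx3cl1 alone supplied 67.3%, 71.1%, and 74.1% of the ligand FPKM, and in Gm31629-/- mice 48.1%, 22.9%, and 35.9%. The CCR2 ligands took 9.27%, 27.5%, and 21.9% in Gm31629-/- mice and 2.13%, 2.09%, and 1.62% in WT mice. Their summed level was 46.5, 238, and 116 FPKM against 6.33, 4.98, and 3.91 FPKM. The summed CXCR3 ligands overlapped, at 22.9, 48.9, and 9.24 FPKM in Gm31629-/- mice and 42.0, 5.15, and 14.6 FPKM in WT mice.

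**Figure D4:**
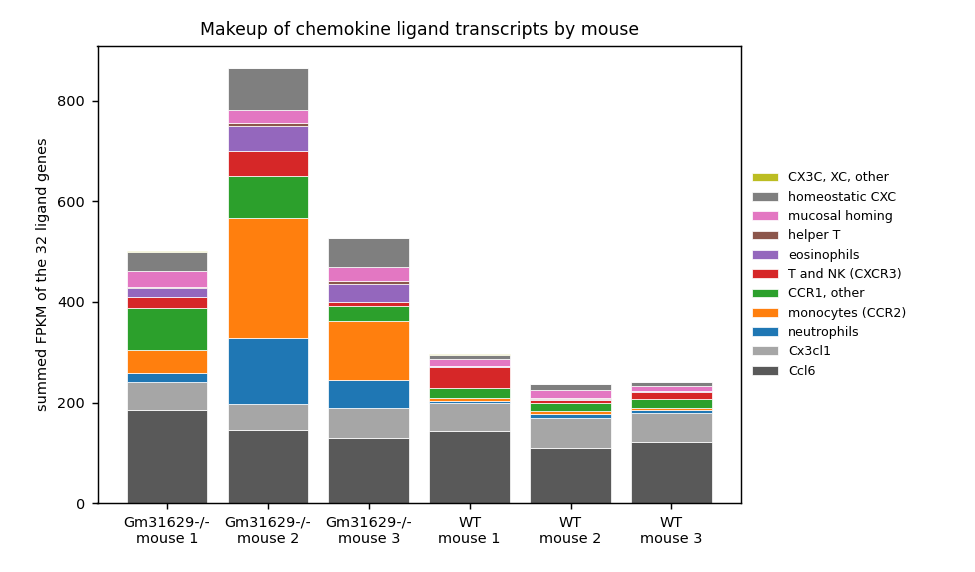
Summed FPKM of the 32 ligand genes (y axis) in each of the 6 mice, stacked by the cell attracted, with Ccl6 and Cx3cl1 shown apart in gray. The gray blocks measure 169 to 241 FPKM over the 6 mice, while the CCR2 block measures 46.5 to 238 FPKM in Gm31629-/- mice and 3.91 to 6.33 FPKM in WT mice.

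Neighboring genes did not always go together. On chromosome 11 of GRCm38, the run from 82035571 to 82305690 holds Ccl2, Ccl7, Ccl11, Ccl12, Ccl8, and Ccl1, and all 5 tested were called higher. The next run on that chromosome, from 83525778 to 83664683, holds Ccl5, Ccl9, Ccl6, Ccl3, and Ccl4 in that order, so the uncalled Ccl9 and Ccl6 lie between called neighbors. On chromosome 5, 2 of 4 were called in the run from 90759360 to 90905938 (Cxcl5, Cxcl3, Cxcl1, and Cxcl2), and by limma 0 of 3 in the run from 92321347 to 92365485 (Cxcl9, Cxcl10, and Cxcl11), as given above. On chromosome 8, Ccl22 was called and its neighbors Cx3cl1 and Ccl17 were not, between 94745590 and 94812036. The receptor run on chromosome 9 from 123678439 to 124113557 holds Ccr9, Cxcr6, Xcr1, Ccr1, Ccr3, and Ccr2, and the 3 that were tested were all called.

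The mice of a group were not alike. Of the 27 called members, Gm31629-/- mouse 2 was the highest of its group in 23, mouse 1 in 4, and mouse 3 in 0. The lowest of the group was mouse 1 in 17, mouse 3 in 8, and mouse 2 in 2. The 4 that peaked in mouse 1 were Ccl5, Ackr1, Ackr2, and Ccl19-ps1. Without mouse 1, whose sex genes differed from the rest, 25 of 42 tested members were called higher and 0 lower, and 18.7% of all tested genes were called higher.

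Genes outside the rule that share the pathway were in part higher as well. The counts below stand beside 18.4% of all tested genes called higher and 4.64% called lower. All 5 lymphoid chemokine genes left out above were called higher, led by Ccl21a (162, 121, and 89.6 FPKM in Gm31629-/- mice and 0.746, 9.26, and 1.35 FPKM in WT mice) and Cxcl13 (90.1, 102, and 91.0 FPKM against 1.97, 1.21, and 1.48 FPKM). Of 7 tested relatives of chemokines, 4 were called higher, including Cd74, the receptor of MIF (log2 fold change 3.62, limma adjusted p = 0.00130), while Mif itself was not called (log2 fold change -0.40, limma adjusted p = 0.177). Of 25 tested genes of receptor signaling 15 were called higher and 0 lower, and Grk6 lay below all WT mice in every Gm31629-/- mouse without being called (limma adjusted p = 0.0773). The most abundant of them, the G protein subunits Gnai2 and Gnb1, were not called, with log2 fold changes of 0.16 and -0.15 (limma adjusted p = 0.494 and 0.3998). Of 16 tested upstream cytokines and transcription factors 7 were called higher and 0 lower. In that list Il1b, a strong inducer of CXCR2 ligands, read 16.7, 125, and 37.6 FPKM in Gm31629-/- mice and 5.75, 5.18, and 5.52 FPKM in WT mice, and had the same order among Gm31629-/- mice as Cxcl5. A link between Il1b and Cxcl5 was not tested. The most abundant members of that list, Irf1 and Nfkbia, had log2 fold changes of -0.22 and 0.91 (limma adjusted p = 0.518 and 0.00683) and were not called, the latter for its fold. Of 9 tested genes that present or cleave chemokines 3 were called higher, and the most abundant, the proteoglycan genes Sdc4 and Sdc1, were not (log2 fold changes of 0.54 and -0.54, limma adjusted p = 0.0518 and 0.218).

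Most marker lists of other cells were higher in Gm31629-/- mice as well. Of 16 lists, 12 had a higher summed FPKM in every Gm31629-/- mouse than in any WT mouse, 1 (colon epithelium) a lower one, and 3 overlapped. All 5 pan-leukocyte markers were called higher, with a summed FPKM of 101 to 173 in Gm31629-/- mice and 16.2 to 20.7 in WT mice, led by Laptm5 and Coro1a. Of 8 tested B cell and plasma cell markers 7 were called higher. The dendritic cell list had 2 of 3 called higher and Irf8 called lower, and the mast cell list had 1 of 4 called higher, and these were the overlapping lists together with NK and cytotoxic cells. Enteric neuron and glia markers were called higher in 8 of 9, with Elavl4 at 0 in every WT mouse, and adipocyte markers in 4 of 5. The part of tissue makeup in the chemokine values cannot be told apart from that of genotype in these 6 mice.

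**Figure D5:**
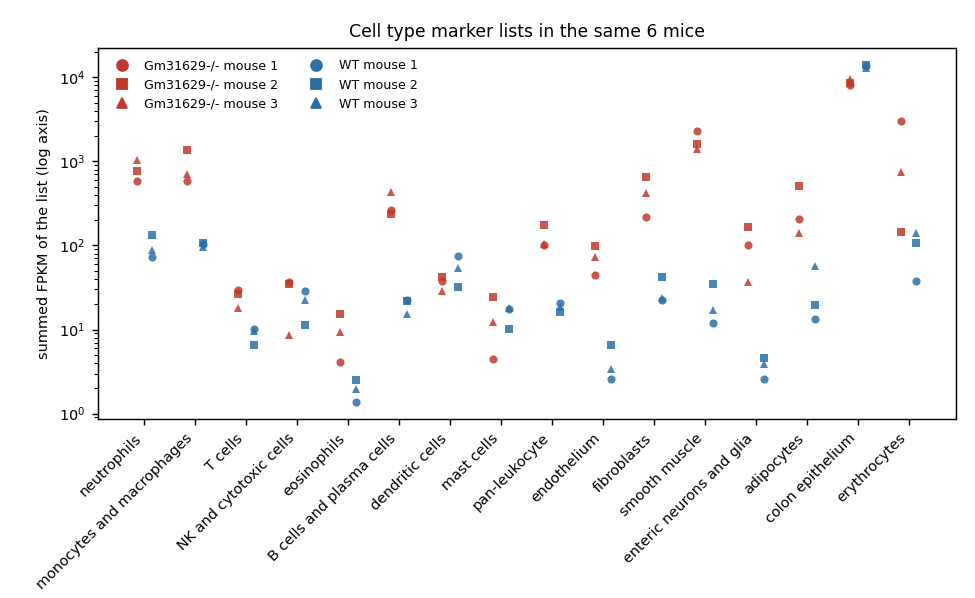
Summed FPKM (y axis, log scale) of 16 cell type marker lists (x axis) in each of the 3 Gm31629-/- mice (red) and 3 WT mice (blue). Smooth muscle is the widest apart, at 1408 to 2290 against 11.9 to 35.0 FPKM, and colon epithelium is the list that is lower in all Gm31629-/- mice.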

How the data were processed

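RNA-Seq was performed on distal colon of 3 Gm31629-/- and 3 WT mice given DSS. The authors deposited FPKM values per gene and replicate. The submitters' processing notes name HISAT2 2.1.0, HTSeq 0.6.0, and GRCm38, and the annotation is not given in the sources used here. Groups and replicate numbers were taken from the labels. Symbols, positions, and exon lengths came from GENCODE M21, which matched 27488 of 27546 identifiers. Members and gene lists were chosen with earlier results of these data known.

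Fragments were recovered from the FPKM steps, and of the values worth 20 fragments or fewer, 96.3% to 97.3% were whole to within 0.1. Intervals and floors from them (3 fragments for a value of 0) cover counting error only. For the test, log2(FPKM + 1) was fitted with lmFit of limma 3.58.1 (R 4.3.3), followed by eBayes with its trend option, over genes with a mean of at least 0.5 FPKM. A pseudocount of 1 understates the fold of low genes. Replicates were taken to be separate mice, and differed by more than counting noise. With 3 mice per group, no exact permutation p can be below 0.10. The script was tested on simulated data. Alternatives tried were no filter, a mean of at least 5 FPKM, a pseudocount of 0.1, TPM, median ratio or epithelial marker scaling, no trend, voom on fragments, a replicate block, other thresholds, and leaving out each mouse. All 6 columns were used.

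Results for 1 member and 1 marker gene are not reported here, although counts over all members and lists include them. Each called member, and the most abundant tested ligand and the receptors of each role, were given per mouse, and from other lists the 2 tested genes with the highest mean, with any defining marker at 0. Other list genes named were chosen after their values were seen. Sequences are from RefSeq (GRCm38.p6), which matched 40 of 54 members. Further members such as Ccl21b were not analysed here.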

Additional observations from a re-analysis of the deposited data

How the results depend on the processing

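The number of members called higher, 27 of 43, was 14 of 21 when a mean of at least 5 FPKM was required, where fewer genes were tested. At that filter 956 of all 7242 tested genes were called higher. When each mouse was left out in turn, 23 to 30 members were called higher. In those fits 2295 to 2913 of the 14332 to 14865 genes tested were called higher. Under the other alternatives the number of members called higher lay between 25 and 35. Among these, the refits called from 2389 of 14584 genes higher (median ratio scaling) to 5090 of 15005 (epithelial marker scaling). For the other thresholds the counts over all genes were not computed. The replicate block, for which same-numbered mice did not deviate together (correlations of 0.036, -0.11, and 0.014), gave 28 members higher and 0 lower. Of all 14657 tested genes it called 2709 higher and 648 lower. The number of members called lower was 0 under every alternative, while the refits called 215 to 996 of all tested genes lower. Of the 27 called members, 21 kept their call in every alternative in which they were tested. The other 6 were Ccl5, Ccl22, Cxcl14, Cxcr3, Ackr2, and Ccl19-ps1. Of the 16 uncalled members, 10 were called under at least 1 alternative (Ccl6, Ccl9, Ccl27a, Ccl28, Ccr6, Ccr10, Cxcl3, Cxcl5, Cxcl11, and Ackr4). Epithelial marker scaling raised the median log2 fold change of all tested genes from 0.15 to 0.72 and that of the members from 1.41 to 1.73, median ratio scaling lowered them to 0.011 and 1.32, and a mean of at least 5 FPKM took the higher share of all calls from 79.9% to 66.0%. Directions that reversed were of genes that were not called. Cx3cl1 was at 0.68 and Ccl25 at 0.29 under epithelial marker scaling. Xcl1 was at -0.0063 with a pseudocount of 0.1, at -0.079 with median ratio scaling, and at -0.0089 by voom. When mice were left out in turn, log2 fold changes ranged from -0.10 to 0.0029 for Cx3cl1, from -0.27 to 0.29 for Xcl1, from -0.41 to 0.82 for Cxcl10, and from -0.069 to 0.057 for Ccl25. The cause of these changes was not tested. Depth limited the low members, as 14 tested members had under 10 fragments in at least 1 WT mouse.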

Other observations

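For 8 receptor genes of leukocytes, levels were also expressed relative to the summed FPKM of the 5 pan-leukocyte markers. The measure was chosen after the data were seen and is given without a test. Of these 8, 3 remained higher in every Gm31629-/- mouse than in any WT mouse on this scale, 5 overlapped, and 0 were lower. These counts hold for the 8 scaled genes alone, and no share of all genes was computed on this scale. Ccr10, for example, was not scaled. Its ratio of group means was 2.46, while the marker sum was 101 to 173 FPKM in Gm31629-/- mice and 16.2 to 20.7 FPKM in WT mice. Per 100 FPKM of those markers, Ccr2 stood at 3.21, 3.66, and 2.52 FPKM in Gm31629-/- mice and 0.541, 0.507, and 0.508 FPKM in WT mice. Cxcr2 stood at 1.38, 1.40, and 1.25 against 0.60, 0.675, and 0.375 FPKM on that scale, and in both genes no WT mouse reached the lowest Gm31629-/- mouse. Cxcr4 was at 14.6, 10.4, and 10.9 against 1.73, 7.02, and 4.11 FPKM. Ccr1, at 6.88, 8.56, and 7.89 against 9.78, 13.4, and 8.48 FPKM, and Cxcr3, at 2.49, 1.92, and 1.62 against 4.53, 1.58, and 3.31 FPKM, overlapped, with most Gm31629-/- mice below most WT mice, and Cxcr6, Cx3cr1, and Ccr6 overlapped too.

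Within the WT group, mouse 1 was the highest for several genes known to respond to interferon and for the cytotoxic marker Gzmb. Cxcl9 and Cxcl10 read 18.7, 1.82, and 6.12 FPKM and 22.3, 3.26, and 8.25 FPKM in WT mice 1 to 3. Irf1, an interferon-induced transcription factor, read 133, 64.6, and 79.3 FPKM, Gzmb, a cytotoxic granule protease, 14.6, 3.13, and 6.63 FPKM, and Irf8 73.2, 30.1, and 51.6 FPKM. Gzma read 10.6, 5.96, and 11.6 FPKM and Nkg7 3.43, 2.01, and 4.25 FPKM in WT mice 1 to 3. These other tested cytotoxic markers were highest in WT mouse 3. Ifng itself was at 0.504, 0.209, and 0.0841 FPKM in Gm31629-/- mice and 0.417, 0, and 0 FPKM in WT mice. In all of these WT mouse 2 was the lowest or level with the lowest of its group. Whether this spread within the WT group bears on the overlap of the CXCR3 ligands was not tested.

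Il22, a cytokine of innate lymphoid cells and Th17 cells that acts on epithelium, and Cxcl5 were both far higher in Gm31629-/- mouse 2 than elsewhere, with Il22 at 0.0490, 16.9, and 2.11 FPKM in Gm31629-/- mice and 0.390, 0.050, and 0.0959 FPKM in WT mice. Il22 was not called (log2 fold change 1.73, limma adjusted p = 0.158). A peak in Gm31629-/- mouse 2 was not particular to Il22 and Cxcl5, as 23 of the 27 called members were highest of their group there. A link between Il22 and Cxcl5 was not tested.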
